A study of Mus musculus with 4 samples.

Results

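The 10 genes described here are the Krueppel-like factors Klf2, Klf3, Klf4, Klf6, Klf7, Klf10 and Klf13 and the antiproliferative genes Btg1, Btg2 and Tob1. They were chosen by name as factors linked to T cell quiescence, by a rule that uses no measured value but with earlier results of these data known, and all 10 were found among the 24537 genes of the deposited table. The libraries came from CD8+ T cells of mouse B16-GP33 tumours at day 21. B16 is a melanoma line, and GP33 is a viral peptide (from lymphocytic choriomeningitis virus) presented to CD8+ T cells. The control cells were labelled EV (2 libraries) and the other cells ACSS2NLS (2 libraries). The enzyme ACSS2 turns acetate into acetyl-CoA; NLS usually stands for nuclear localisation signal. The labels give neither the vector and its promoter nor the strain, age or number of mice, and they do not say that the libraries of a group were taken from separate mice. The p-values therefore reflect how far these particular libraries differ, and that spread may be purely technical. No group carried ACSS2 without the signal, so its amount and its location cannot be told apart.

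Krueppel-like factors are transcription factors that bind CACCC and GC-rich elements through zinc fingers at their C-terminal end. KLF2 is kept high in resting T cells and drives the egress receptor S1PR1, while antigen signals lower it. BTG and TOB proteins share an N-terminal domain that binds the deadenylases CNOT7 and CNOT8 and so speeds the shortening of poly(A) tails. BTG1 and BTG2 keep resting T cells quiescent in this way, and TOB1 restrains T cell activation.

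The RefSeq promoter table (GRCm38.p6, the same assembly as mm10) held a promoter for 9 of the 10 genes. In the 250 bases before each start, 6 short motifs were searched on both strands, and a match is a description of the letters only. The MEF2 motif (10 bases) was found in Klf2 alone and in 3.2% of all 32851 promoters. The FOXO motif TGTTTAC was found in Btg1 alone (3.17% of all promoters) and the cyclic AMP response element TGACGTCA in Btg2 alone (1.55%). The AP-1 motif TGANTCA was in none of the 9 (6.75% of all promoters). The KLF motif CCACCC was in 5 of the 9, namely Klf2, Klf3, Klf7, Klf13 and Tob1 (28.1% of all), and the GC box GGGCGG was in all 9 (32.7% of all). The 4 windows below are shown because Klf2, Btg1 and Btg2 hold the rarer motifs and because Klf3 is the member with replicate 2 above replicate 1 in both groups. Capitals mark every match, and matches can overlap each other. The MEF2 match of Klf2 starts at base -118 from the transcript start, the FOXO match of Btg1 at -204 and the response element of Btg2 at -166. Klf3 has KLF motifs that start at -121, -111 and -49.
Klf2, chr8:72318812-72319061, plus strand: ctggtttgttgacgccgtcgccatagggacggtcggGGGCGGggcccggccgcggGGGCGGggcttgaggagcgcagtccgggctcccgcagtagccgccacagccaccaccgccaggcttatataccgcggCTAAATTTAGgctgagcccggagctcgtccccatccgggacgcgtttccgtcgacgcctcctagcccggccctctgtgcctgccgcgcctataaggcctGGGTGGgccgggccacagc
Btg1, chr10:96616751-96617000, plus strand: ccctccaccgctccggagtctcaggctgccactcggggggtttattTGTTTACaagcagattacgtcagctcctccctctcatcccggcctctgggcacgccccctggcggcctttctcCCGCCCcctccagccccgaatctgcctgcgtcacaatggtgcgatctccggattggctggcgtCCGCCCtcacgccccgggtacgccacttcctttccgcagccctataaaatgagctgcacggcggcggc
Btg2, chr1:134079156-134079405, minus strand: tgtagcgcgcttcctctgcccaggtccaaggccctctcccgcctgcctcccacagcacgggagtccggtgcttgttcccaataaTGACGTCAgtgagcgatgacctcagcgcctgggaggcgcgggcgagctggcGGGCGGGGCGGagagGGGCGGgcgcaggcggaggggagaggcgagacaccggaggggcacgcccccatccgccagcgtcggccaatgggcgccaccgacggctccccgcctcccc
Klf3, chr5:64803271-64803520, plus strand: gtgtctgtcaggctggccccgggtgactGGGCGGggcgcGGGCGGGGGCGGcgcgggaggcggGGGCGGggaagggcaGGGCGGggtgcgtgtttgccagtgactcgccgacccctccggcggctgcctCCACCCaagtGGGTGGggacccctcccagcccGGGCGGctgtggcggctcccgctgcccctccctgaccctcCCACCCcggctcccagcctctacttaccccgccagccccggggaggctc

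The labels were checked on Acss2, which was at 3.66 and 3.92 FPKM in EV against 80.7 and 86.3 FPKM in ACSS2NLS. FPKM are fragments per kilobase of exon, scaled to the tags of the library. All libraries held transcripts of CD8+ T cells, with Cd8a between 145 and 186 FPKM and Cd3e between 315 and 346 FPKM, against 1.11 to 2.4 FPKM for Cd4. The libraries of a group differed in transcripts of other cells. The summed level of the 9 melanoma markers, all in the table, was 5.6 and 39.2 FPKM in EV replicates 1 and 2 and 12 and 140.2 FPKM in ACSS2NLS replicates 1 and 2. The 14 myeloid markers summed to 63.1 and 434 FPKM in EV and to 162 and 673 FPKM in ACSS2NLS, in the same order. The 8 fibroblast markers were at 0.179 and 6.44 FPKM in EV and at 10.4 and 10.7 FPKM in ACSS2NLS. Endothelial cells are a known source of Klf2 and Klf4. The 8 endothelial markers summed to 10.2 to 12.3 FPKM, of which Pecam1, which T cells also express, made 8.5 to 10.2 FPKM and Egfl7 1.39 to 1.64 FPKM. Kdr reached 0.393 and Esam 0.255 FPKM, while Cdh5, Tie1, Cldn5 and Emcn stayed at or below 0.089 FPKM in each library. The summed levels of the B cell, CD4 and NK cell lists were 1.58 to 3.14, 7.47 to 12.1 and 16.3 to 59.6 FPKM. Most of the NK cell sum came from Tyrobp (9.61 to 49.1 FPKM), which is also a myeloid marker, and from Eomes (4.23 to 9.34 FPKM). In that list Klrb1c reached 1.9 FPKM and Ncr1 1.26 FPKM.

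None of the 10 genes differed between ACSS2NLS and EV past the threshold. Genes had to average at least 1 FPKM to be tested, a filter that all 10 members passed. Of the 9810 tested, 0.0204% were called in either direction by limma-trend at an adjusted p of 0.05, namely Acss2 and its antisense gene Acss2os, both higher. The library kit does not mark strand, so reads from any bases that Acss2 and Acss2os share cannot be assigned with certainty. With libraries centred on T cell markers instead, 34 genes were called higher and 23 lower, against 2 and 0. At an unadjusted p under 0.05 also, 0 members were higher and 0 lower, where 3.1% of all genes tested were higher and 2.87% lower with such a p, 5.97% in all. By mean, 3 members were higher and 7 lower in ACSS2NLS, so 70% were lower against 46.8% of all genes tested. The median log2 change of the members was -0.25, against 0.02 for all genes tested, where the log2 change compares mean log2(FPKM + 1) in ACSS2NLS with that in EV and is positive when ACSS2NLS is higher. That scale understates the change of low genes. Centred on T cell markers, the median of all genes moved to 0.16 and that of the members to -0.11; centring adds the same amount to the change of every gene, so the members' median relative to all genes (-0.27) cannot differ between these scalings. The members' median was -0.04 without EV replicate 1 and -0.56 without EV replicate 2. It was -0.40 without ACSS2NLS replicate 1 and -0.05 without ACSS2NLS replicate 2. In bulk samples, fewer cells of a type and less RNA per cell cannot be told apart.

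**Figure D1:**
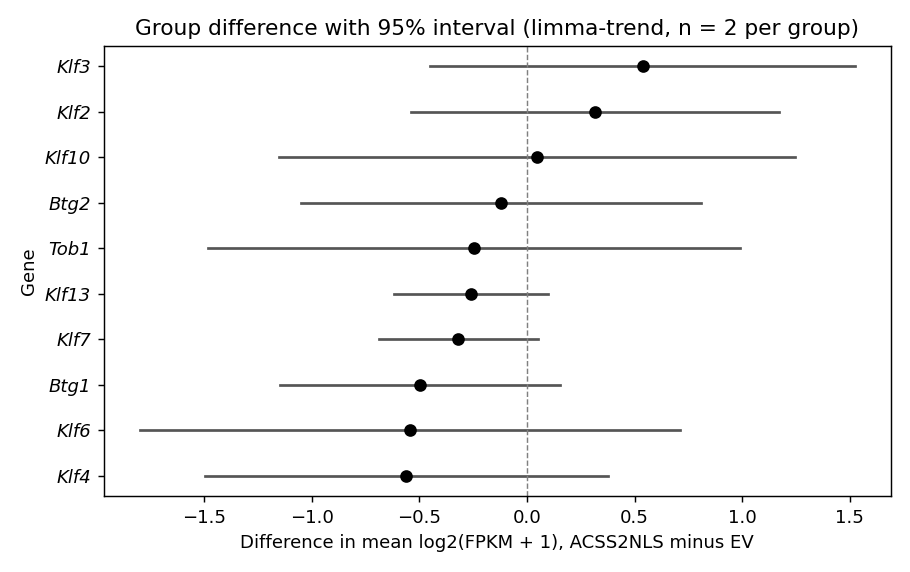
Difference in mean log2(FPKM + 1) between ACSS2NLS and EV for each of the 10 genes (points) with its 95% interval from limma-trend (lines), 2 libraries per group. The interval of each of the 10 genes crosses 0, and those of Klf7 and Klf13 are the narrowest.

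The members covered a wide range of levels, which FPKM allows to be compared per length. Klf6 (mean 67.8 FPKM), Btg2 (51.8 FPKM) and Btg1 (48.4 FPKM) were the most abundant and together made 68.5% to 79.6% of the members' summed FPKM in a library. They were followed by Klf2 (13.3 FPKM), Klf10 (12.1 FPKM), Klf13 (9.83 FPKM), Tob1 (7.15 FPKM), Klf7 (3.83 FPKM), Klf3 (2.71 FPKM) and Klf4 (1.79 FPKM). The one step in this order that held in 4 of 4 libraries was from Btg1 down to Klf2; Btg2 and Btg1, and Klf2 and Klf10, each changed places in 2 of the 4, and the other neighbours in 1. The levels rest on 127 tags (Klf3 in EV replicate 1) to 19506 tags (Klf6 in the same library). The exact Poisson 95% interval of a member's level in 1 library was therefore at most ±17.8%, which covers counting error only, since amplified reads without molecular identifiers are not independent molecules. The counted transcript of Klf7 has 1330 exon bases where the GENCODE M21 exons of the gene cover 8131, and that of Klf3 has 2306 of 11243, so the per-length levels of these genes rest on a part of the gene. GENCODE exons of genes on the opposite strand overlap those of Klf3 by 404 bases (Gm20033) and those of Klf7 by 3196 bases (Gm26649), and the library kit that the labels name does not mark strand, so reads there cannot be assigned with certainty. How much of these stretches lies in the counted transcripts was not determined.

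**Figure D2:**
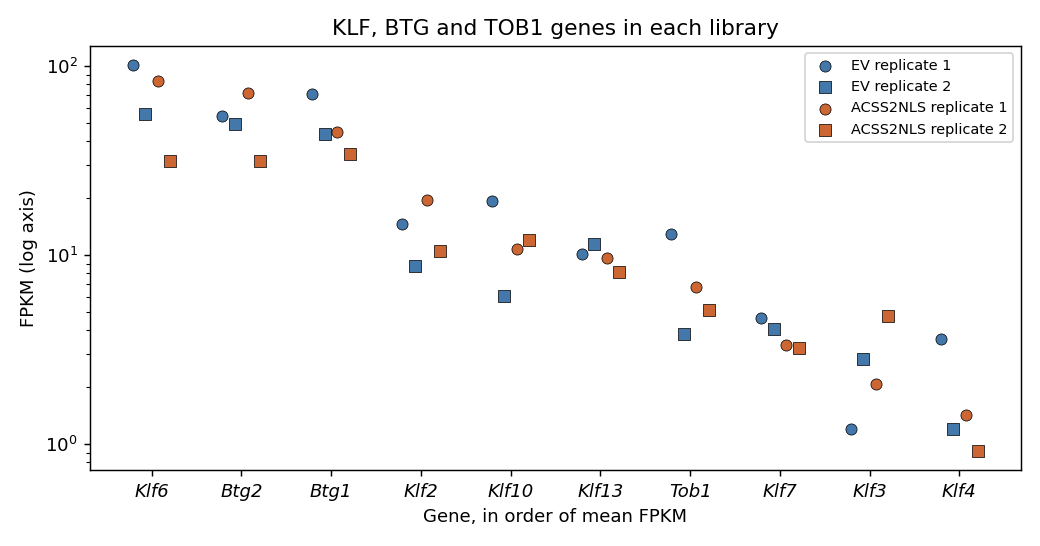
Level of each gene in FPKM (log axis) in the 4 libraries, with genes in order of their mean. The EV (blue) and ACSS2NLS (orange) libraries overlap for 8 genes, while for Klf7 and Klf13 both ACSS2NLS libraries lie below both EV libraries.

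Klf2 (NM_008452; mm10 chromosome 8, 72319062 to 72321654, plus strand) was at 14.5 and 8.78 FPKM in EV against 19.5 and 10.5 FPKM in ACSS2NLS. Replicate 1 was the higher library in both groups, and the groups overlapped. The log2 change was 0.32 ± 0.34 (SE, n = 2 per group; limma-trend, adjusted p = 0.879), with a 95% interval from -0.54 to 1.17. It turned to -0.02 without EV replicate 2 and to -0.10 without ACSS2NLS replicate 1. The 3 genes whose deviations over the 4 libraries were most like those of Klf2 were Clk1, Wbp5 and Jun, with a root mean square difference of 0.048, 0.089 and 0.107 on the log2 scale. Jun encodes a subunit of AP-1. The 3 genes were picked as the closest of many over only 4 libraries, and shared regulation was not tested.

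S1pr1, the egress receptor gene that KLF2 drives, had a higher mean in ACSS2NLS, without passing the test. S1pr1 was at 1.29 and 1.66 FPKM in EV against 3.45 and 2.89 FPKM in ACSS2NLS (a log2 difference of 0.75 ± 0.18, adjusted p = 0.775). The groups did not overlap, as for 19.3% of all genes tested with ACSS2NLS the higher group. Foxo1, the factor upstream of Klf2 in resting T cells, was at 10.3 and 9.63 FPKM in EV against 8.9 and 8.28 FPKM in ACSS2NLS (-0.20 ± 0.12). Of the 17 genes of this axis (regulators of Klf2, its ubiquitin ligases and trafficking genes), 14 were tested. Of these 8 had a higher and 6 a lower mean, 0 passed in either direction, and the median was 0.03. Il7r, the IL-7 receptor chain gene, had the next smallest unadjusted p after S1pr1 (-0.57 ± 0.26); its log2 change was -0.22 without EV replicate 2 and -0.92 without EV replicate 1.

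Klf6 (NM_011803; chromosome 13, 5861489 to 5870393, plus strand), an early response factor, was at 101 and 55.9 FPKM in EV against 83.3 and 31.3 FPKM in ACSS2NLS. Replicate 1 was well above replicate 2 in both groups, and the groups overlapped. The log2 change of -0.54 ± 0.50 (limma-trend, adjusted p = 0.862) had an interval from -1.8 to 0.71, the widest of the 10, and turned to 0.15 without ACSS2NLS replicate 2. Without ACSS2NLS replicate 1 the change was -1.24. Klf10 (NM_013692; chromosome 15, 38294406 to 38300711, minus strand), an early gene induced by TGF-beta, was at 19.4 and 6.07 FPKM in EV against 10.8 and 12.1 FPKM in ACSS2NLS. Both ACSS2NLS libraries lay between the EV libraries. Its log2 change was 0.05 ± 0.48, while its mean FPKM was 0.897 times that of EV, so the scale decides the sign. Without EV replicate 2 the log2 change was -0.72, and without ACSS2NLS replicate 2 it was -0.03.

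Klf4 (NM_010637; chromosome 4, 55527137 to 55532475, minus strand), which restrains the division of CD8+ T cells and is also active in monocytes, was the least abundant member. It was at 3.61 and 1.2 FPKM in EV against 1.43 and 0.92 FPKM in ACSS2NLS. EV replicate 1, the library with the lowest myeloid marker level, stood above the other libraries. The part of myeloid cells in the level of Klf4 was not tested. The log2 change of -0.56 ± 0.37 (limma-trend, adjusted p = 0.825) shrank to -0.03 without EV replicate 1, and the interval ran from -1.5 to 0.38. The change was -1.09 without EV replicate 2, -0.73 without ACSS2NLS replicate 1 and -0.39 without ACSS2NLS replicate 2.

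Klf3 (NM_008453; chromosome 5, 64803523 to 64830129, plus strand), a repressor that recruits the corepressor CtBP, was at 1.2 and 2.82 FPKM in EV against 2.08 and 4.75 FPKM in ACSS2NLS. It was the only member with replicate 2 above replicate 1 in both groups. From lowest to highest, its libraries came in the order EV replicate 1, ACSS2NLS replicate 1, EV replicate 2 and ACSS2NLS replicate 2, which is also the order of the summed melanoma markers and of the summed myeloid markers. The part of these cells in the level of Klf3 was not tested. The log2 change was 0.54 ± 0.39 (adjusted p = 0.835; interval -0.45 to 1.52), and 0.14 without EV replicate 1 or 0.09 without ACSS2NLS replicate 2. Without EV replicate 2 it was 0.94, and without ACSS2NLS replicate 1 it was 0.99. Ctbp1, its corepressor, had a log2 change of -0.17 ± 0.12 and the deacetylase gene Hdac2 one of 0.13 ± 0.11. These had the smallest unadjusted p among 8 tested KLF cofactor genes, of which 4 had a higher and 4 a lower mean and 0 passed (median -0.03).

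Klf7 and Klf13 were the members with the least spread and the ones whose groups did not overlap. Klf7 (NM_033563; chromosome 1, 64035671 to 64121389, minus strand) was at 4.66 and 4.07 FPKM in EV against 3.36 and 3.23 FPKM in ACSS2NLS. Klf13 (NM_021366; chromosome 7, 63886351 to 63938915, minus strand), known in T cells as a factor for late expression of the chemokine gene Ccl5, was at 10.2 and 11.4 FPKM in EV against 9.64 and 8.1 FPKM in ACSS2NLS. Such a lower, non-overlapping pattern was found in 18.1% of all genes tested, so 2 of 10 is near the background. Counting both directions, 37.4% of genes tested had groups without overlap. These patterns leave out counting error. For Klf7 the counting intervals of EV replicate 2 (3.6 to 4.59 FPKM) and ACSS2NLS replicate 1 (2.93 to 3.83 FPKM) overlapped. For Klf13 those of EV replicate 1 (9.79 to 10.5 FPKM) and ACSS2NLS replicate 1 (9.3 to 9.99 FPKM) did so too. The log2 changes were -0.32 ± 0.15 for Klf7 (interval -0.69 to 0.05) and -0.26 ± 0.14 for Klf13 (interval -0.62 to 0.10), with limma-trend adjusted p = 0.81 and 0.813. Leaving out each library in turn, Klf7 ranged from -0.40 to -0.24 and Klf13 from -0.37 to -0.15. Klf13 was -0.18 without EV replicate 2, -0.15 without ACSS2NLS replicate 2 and -0.12 when centred on T cell markers. Klf7 was -0.18 with that centring.

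Among the antiproliferative genes, Btg1 had the lowest mean in ACSS2NLS relative to EV. Btg1 (NM_007569; chromosome 10, 96617001 to 96622811, plus strand) was at 71.0 and 43.7 FPKM in EV against 44.7 and 34.3 FPKM in ACSS2NLS. EV replicate 1 stood above the rest, and ACSS2NLS replicate 1 lay just above EV replicate 2, so the groups overlapped. The log2 change was -0.50 ± 0.26 (adjusted p = 0.81; interval -1.15 to 0.15). It was -0.15 without EV replicate 1, -0.84 without EV replicate 2 and -0.31 without ACSS2NLS replicate 2.

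Btg2 (NM_007570; chromosome 1, 134074865 to 134079155, minus strand), which is also induced by p53, was at 54.4 and 49.5 FPKM in EV against 71.9 and 31.4 FPKM in ACSS2NLS. Its ACSS2NLS libraries lay on either side of the EV libraries, and the group means of 51.9 and 51.7 FPKM were nearly equal. The log2 change of -0.12 ± 0.37 (adjusted p = 0.965; interval -1.05 to 0.81) turned to 0.46 without ACSS2NLS replicate 2. It was 0.02 when centred on T cell markers, a shift shared by all genes, and -0.14 relative to the median of all genes with or without centring. The interval allows a change of about 1 on the log2 scale in either direction, so near-equal means do not show equal levels. The genes with the most similar deviations were Ifi27l2a, Ifi214 and Mylpf (root mean square difference 0.147, 0.169 and 0.175). As for Klf2, these were picked as the closest of many over only 4 libraries, and shared regulation was not tested.

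Tob1 (NM_009427; chromosome 11, 94211454 to 94215492, plus strand) was at 12.9 and 3.8 FPKM in EV against 6.78 and 5.1 FPKM in ACSS2NLS. As for Klf10, both ACSS2NLS libraries lay between the EV libraries. The log2 change of -0.25 ± 0.49 (limma-trend, adjusted p = 0.937, interval -1.48 to 0.99) turned to 0.52 without EV replicate 1. Without EV replicate 2 the change was -1.02.

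The genes of the machinery through which BTG and TOB proteins act had small differences between the groups. The deadenylase genes Cnot7 and Cnot8 had log2 changes of 0.01 ± 0.11 and 0.03 ± 0.11, Pabpc1, which encodes the poly(A)-binding protein, 0.03 ± 0.12, and Prmt1, an arginine methyltransferase that binds BTG proteins, -0.09 ± 0.11. The intervals were -0.27 to 0.29 for Cnot7, -0.24 to 0.29 for Cnot8, -0.28 to 0.34 for Pabpc1 and -0.36 to 0.19 for Prmt1. Of 23 genes of deadenylation and decapping, 11 had a higher and 12 a lower mean, 0 passed and the median was -0.01. The smallest unadjusted p belonged to Cnot4 (0.37 ± 0.14) and Cnot9 (-0.24 ± 0.11), both subunits or partners of the CCR4-NOT complex.

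The spread between libraries of a group was the main feature of the members' data. The mean size of the difference between replicates of a group was a median of 0.73 on the log2 scale for the members, against 0.18 for all genes tested. For 8 of the 10 members, all but Klf7 and Klf13, this gap lay in the highest 10% of genes tested. It exceeded the group difference in 8 of the 10, as it did in 62.6% of all genes tested. In 7 of the 10, namely Klf2, Klf4, Klf6, Klf7, Btg1, Btg2 and Tob1, replicate 1 was above replicate 2 in both groups, a pattern shared by 26.5% of genes tested; in 1 of the 10, Klf3, replicate 2 was above in both, against 34.9% of genes tested. The 95% intervals of the members' log2 changes had a median width of 1.87, against 0.79 for all genes tested. For Klf7, with counting intervals of ±11.8% to ±13.8% per library, the intervals of the replicates overlapped in both groups, so its gap lay within counting error. For the other members the intervals of the replicates did not overlap in either group.

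**Figure D3:**
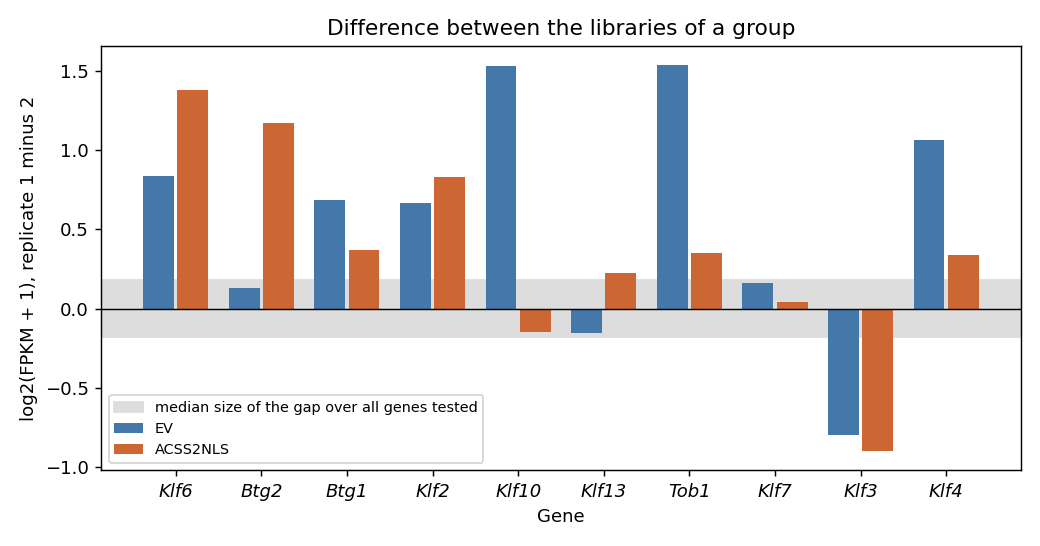
Replicate 1 minus replicate 2 of log2(FPKM + 1) within EV (blue) and within ACSS2NLS (orange) for each gene; the grey band spans plus and minus the median size of this gap over all genes tested, 0.18. The bars of Klf7 and Klf13 stay near the band, those of Klf3 point down, and Klf6 reaches 1.38 in ACSS2NLS.

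Immediate early and stress genes, which respond to antigen signals and to cell handling, differed between libraries in the same order as the members. Of 21 such genes, 17 had a replicate gap in the highest 10% and 15 had replicate 1 above replicate 2 in both groups. Relative to the mean of the 4 libraries, the mean log2 level of the members was 0.37 and -0.20 in EV against 0.10 and -0.27 in ACSS2NLS. That of the immediate early list was 0.41 and -0.20 in EV against 0.22 and -0.44 in ACSS2NLS, and that of 9 T cell markers 0.20 and -0.06 in EV against 0.12 and -0.26 in ACSS2NLS. The myeloid list ran the other way, at -1.33 and 1.09 in EV against -0.68 and 0.92 in ACSS2NLS, as did the melanoma list, at -1.34 and 0.26 in EV against -0.82 and 1.91 in ACSS2NLS. With 4 libraries these are values side by side, and the part of cell handling, antigen signals or other cells in the members' levels was not tested. In the comparison of the groups, 15 immediate early genes had a lower and 6 a higher mean in ACSS2NLS (median -0.55), and 0 passed. That median was -0.15 without EV replicate 1 and -0.25 without ACSS2NLS replicate 2, and -0.83 without EV replicate 2. The smallest unadjusted p belonged to the phosphatase gene Dusp2 (-1.13 ± 0.25, adjusted p = 0.775) and to Egr2 (1.10 ± 0.28, adjusted p = 0.81). With libraries centred on T cell markers, both passed the limma-trend threshold (adjusted p = 0.003 for Dusp2 and 0.00854 for Egr2). That fit may take little account of each gene's own spread. The log2 change of Egr2 was 0.72 without ACSS2NLS replicate 2.

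**Figure D4:**
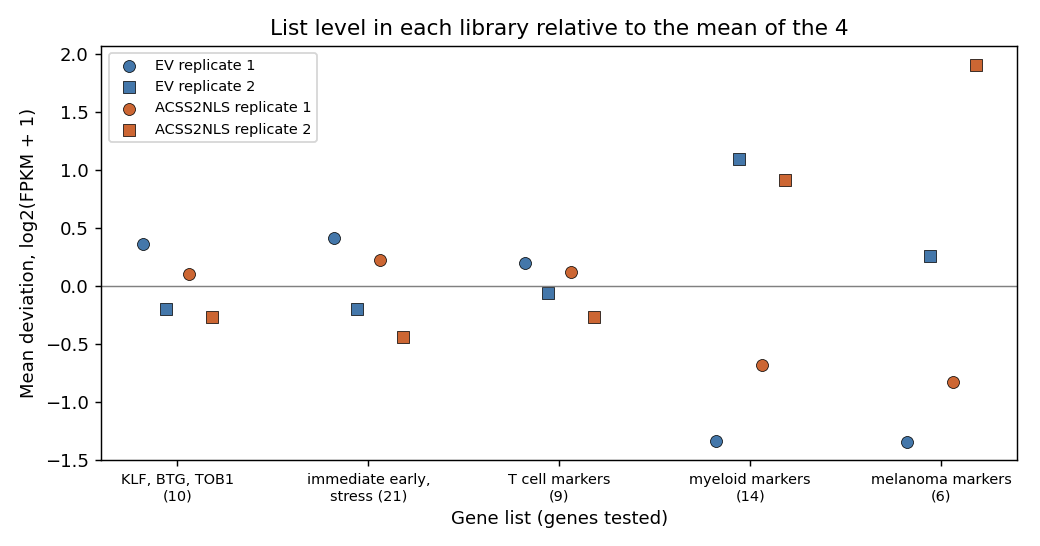
Mean log2(FPKM + 1) of each gene list in each library, relative to the mean of the 4 libraries. The KLF, BTG and TOB1 genes, the immediate early genes and the T cell markers have the same order of libraries, with EV replicate 1 the highest and ACSS2NLS replicate 2 the lowest, while the myeloid and melanoma markers are lowest in EV replicate 1.

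The other KLF, BTG and TOB genes added no call. Of 13, 5 were tested and 8 were below the filter. Klf1, Klf5, Klf8, Klf12, Klf14, Klf15, Klf17 and Btg4 stayed at or below 0.435 FPKM in each library, with Klf14 and Btg4 listed at 0 in all 4. Among those tested, Tob2 was the most abundant (16.4 FPKM in both groups; log2 change 0.05 ± 0.24). Klf11 was at 2.23 and 1.43 FPKM in EV and ACSS2NLS on average (-0.41 ± 0.24), Klf9 at 1.52 in both (-0.01 ± 0.20) and Klf16 at 3.4 and 3.47 (0.02 ± 0.16). The row named Btg3 gave 12.6 and 9.84 FPKM in EV against 8.66 and 8.59 FPKM in ACSS2NLS (-0.34 ± 0.15). That row lies on chromosome 17, while RefSeq places Btg3 on chromosome 16, so its reads may be shared with a near-identical copy and its level is uncertain. None of the 5 passed, and their replicate gaps were all outside the highest 10% of genes tested.

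Other genes linked to T cell quiescence had means on both sides of EV, and none passed the test. Of 19 tested of 22 found in the table, 10 had a higher and 9 a lower mean, 0 passed and the median was 0.01 (-0.11 to -0.04 with a library left out). Cdkn1a, which encodes the cell cycle inhibitor p21, was at 30.2 and 18.5 FPKM in EV against 10.4 and 13.7 FPKM in ACSS2NLS (a log2 difference of -0.93 ± 0.26, adjusted p = 0.81). Zfp36l2, an RNA-binding protein gene that promotes mRNA decay, was at 53.6 and 115 FPKM in EV against 37.6 and 34.5 FPKM in ACSS2NLS (-1.11 ± 0.35, adjusted p = 0.81). Both ACSS2NLS libraries lay below both EV libraries for these genes, as for 18.1% of all genes tested. Cdkn1a and Zfp36l2 are named because they had the smallest unadjusted p of their list, which favours groups without overlap. Zfp36l2 passed when libraries were centred on T cell markers (limma-trend, adjusted p = 0.0297). The centred fit may take little account of the spread of Zfp36l2 in EV, 53.6 against 115 FPKM. Without EV replicate 2 the log2 change of Zfp36l2 was -0.56, and without EV replicate 1 that of Cdkn1a was -0.59 and that of Zfp36l2 -1.65. Of 29 tested cell cycle genes, 20 had a lower and 9 a higher mean, 0 passed and the median was -0.08; it was 0.06 when centred on T cell markers. The smallest unadjusted p in that list belonged to the mitotic cyclin gene Ccnb2 (-0.35 ± 0.11) and the G1 cyclin gene Ccnd3 (-0.29 ± 0.11).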

How the data were processed

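The values are FPKM that the authors deposited with 3 decimals for 4 libraries. The submitters' processing notes name STAR 2.5.3a, HOMER and the mm10 build. Tags on sense exons were counted by HOMER and condensed to 1 transcript per gene, per the file headers. The header names 8 tag directories, and the table has 4 value columns. Columns named Acss2WT and Acss2OE were read as EV and ACSS2NLS with the replicate number. Low FPKM times exon length fell on whole multiples of a step, within 0.1 of it, in 100% of values checked (genes of 500 to 2000 bases, under 50 tags). From that step, libraries held 46000000 to 49300000 tags (rounded to 100000), with 39.6% to 41.9% counted on sense exons. Tags on the opposite strand of exons are not in that share. Groups were compared on log2(FPKM + 1), for a mean of at least 1 FPKM, with limma-trend (limma 3.58.1 under R 4.3.3; two-sided; Benjamini-Hochberg adjusted over 9810 genes; threshold 0.05); the fit was tested on simulated data. Named genes were the members, Acss2, the other tested family genes, 7 fixed pathway genes (a gene among them is not reported here), the 2 with the smallest unadjusted p per pathway list, and the 3 most similar to Klf2 and to Btg2; the Acss2 antisense gene, the undetected family genes and the cell markers were named outside the comparison. Alternatives were 2 other pseudocounts, 2 filters, 2 scalings, no trend, a replicate block and leaving out each library. The members and lists were chosen with earlier results of these data known.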

Additional observations from a re-analysis of the deposited data

How the results depend on the processing

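Over the alternatives that can alter a log2 change (pseudocounts, scalings and left-out libraries), 5 of the 10 members (Klf3, Klf4, Klf7, Klf13 and Btg1) kept their direction; the filters, the trend and the block alter only the test, and Klf3, Klf4 and Klf7 fall below the filter of 5 FPKM. The count of 2 genes called higher over all genes became 1 with no filter, 34 when centred on T cell markers and 229 with the replicate block. The count of 0 called lower became 23 with that centring and 172 with the block. The centred fit may take little account of each gene's own spread. Leaving out a library in turn gave 2 genes higher in each case and 0 to 9 lower, the 9 without EV replicate 1. With the replicate block, 2 members were called lower, Klf6 (-0.54, limma adjusted p = 0.0205) and Btg1 (-0.50, adjusted p = 0.0237), against 0 without it; S1pr1, Il7r, Cdkn1a, Zfp36l2, Dusp2 and Egr2 passed too. Differences between replicates correlated across genes between the groups (r = 0.58), but the labels do not say that a number marks a shared mouse or day, and the block leaves 1 residual degree of freedom. The members' median ranged from -0.56 to -0.042 over the left-out libraries.

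Other results changed sign without passing the test. Centring on T cell markers adds the same amount to every gene, which turned the sign of Btg2 (0.018), Klf9 (0.13), Prmt1 (0.052) and Ifi214 (0.12). Quantile normalization turned that of Klf16 (-0.028). With a library left out, the ranges crossed 0 in 16 genes. They ran from Klf2 -0.10 to 0.73, Klf6 -1.24 to 0.15, Klf10 -0.72 to 0.81, Btg2 -0.71 to 0.46, Tob1 -1.02 to 0.52, Klf9 -0.21 to 0.18, Klf16 -0.12 to 0.15, Tob2 -0.30 to 0.39, Cnot7 -0.013 to 0.032, Pabpc1 -0.055 to 0.11, Clk1 -0.062 to 0.67, Wbp5 -0.19 to 0.54, Jun -0.31 to 0.55, Ifi27l2a -0.76 to 0.18, Ifi214 -0.40 to 0.36, Mylpf -0.31 to 0.67. A left-out library leaves a lone sample in its group, assumed to vary like the other group. Depth limits Klf7, whose replicates differed by less than counting error.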
